A study of Mus musculus with 120 samples.

Results

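The chemokines and their receptors were taken as every gene whose symbol had one of the systematic chemokine names (Ccl, Cxcl, Xcl or Cx3cl for ligands, and Ccr, Cxcr, Xcr or Cx3cr for receptors, each followed by a number and at most 1 letter). The rule found 64 of the 55487 genes listed in both count tables, 46 ligand genes and 18 receptor genes, under 58 symbols. No measured value entered the rule. Of the 64 genes, 2 (Ccl21d and Ccl26) had no count in any library and 7 never reached a count of 10. Ccl19, Ccl21a, Ccl21b and Ccl27a were each listed more than once, on chromosome 4 and on unplaced scaffolds, and because the copies can share reads their counts are uncertain.

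Chemokines are small secreted proteins that draw leukocytes along a concentration gradient by engaging seven-transmembrane receptors coupled to inhibitory G proteins. Inflammatory chemokines such as Ccl2, Cxcl2 and Cxcl10 are made on demand by macrophages, fibroblasts and endothelium, whereas Cxcl12 and Cxcl14 are made constitutively in many tissues. At an implanted biomaterial, the foreign body response recruits neutrophils first and then monocytes, macrophages and lymphocytes, and these cells carry most of the receptors measured here.

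Biopsies of polycaprolactone scaffolds, porous implants placed under the skin that fill with host immune and stromal cells and were called immunological niches, were profiled by bulk RNA-seq in 120 libraries. The mice were female and of 2 strains: NOD/ShiLtJ, which develops autoimmune diabetes spontaneously, and NOR/LtJ, a related strain that does not become diabetic. NOD mice were divided by outcome into progressors, which became hyperglycemic, and nonprogressors, which stayed normoglycemic until the study ended. The labels name no drug or transgene in any group, and several scaffolds per mouse were biopsied in rotation, each being replaced by a fresh one. Biopsies at 6 weeks are thus of original implants. By the weekly rotation that the authors describe, biopsies at 10 weeks of age or older would be of replacements. The labels used here do not give how long each scaffold had been in place. Where later biopsies are set against those at 6 weeks, original or replacement scaffold cannot be told apart from age or time to onset.

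NOR biopsies came from mice aged 6 weeks (4 libraries), 10 weeks (5), 14 weeks (5), 18 weeks (4) and 22 weeks (5), all in batch 1. Nonprogressor biopsies were taken at 6 weeks (4 in batch 1 and 7 in batch 2), 14 weeks (4 and 6), and 10, 18 and 22 weeks (4 each, batch 1 only). Progressor biopsies were taken at 6 weeks of age and at 5, 3 and 1 weeks before onset and at onset of hyperglycemia (5 in each batch at each time), and at 7 weeks before onset (8, batch 2 only). A further 6 nonprogressor libraries labelled by days after implantation were kept out of every comparison. The batches are the 2 separately deposited count tables.

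Library totals were 4722396 to 56185434 counts in batch 1 (median 30186412.5, n = 74) and 29029239 to 43880986 in batch 2 (median 36440355.5, n = 46). Levels are given as CPM, a gene's share of its library's counts, with libraries scaled by the TMM factors of edgeR. At 6 weeks of age the batches differed in 60.8% of all genes tested (30.1% higher and 30.7% lower in batch 2), and 21 of 44 chemokine genes tested (47.7%) differed, 15 higher and 6 lower in batch 2, so levels are given by batch and batch was a term of every fit that spanned both. Ccr2 was the clearest (log2 change 1.30 ± 0.13, SE, adjusted p = 4.23e-08) and Ccl8 the largest in size (1.89 ± 0.21, adjusted p = 1.41e-07). The macrophage markers summed to between 1790 and 4124 CPM in every group of biopsies, the fibroblast markers to between 5910 and 85340 CPM. Of the NOR biopsies at 18 weeks, that of mouse 5 had 85.7% of its counts on 1 ribosomal RNA gene, and that of mouse 4 had a neutrophil marker sum of 344 CPM against 55.1 CPM or less in every other biopsy labelled by age or time to onset.

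Per kilobase of exon, the ligands with the highest median level over the 120 biopsies were Ccl8 (193.9 CPM per kb), Ccl6 (79.0), Cxcl14 (71.7), Ccl9 (55.0), Cxcl16 (25.7) and Cxcl12 (21.1). Ccl8 is a monocyte chemoattractant that in the mouse also engages Ccr8, Ccl6 and Ccl9 are mouse ligands of Ccr1, Cxcl16 is a membrane-anchored ligand of Cxcr6, and Cxcl12 is the ligand of Cxcr4. Receptors with high levels were Cxcr4 (33.1 CPM per kb), Ccr1 (16.9), Cx3cr1 (3.73), Ccr2 (2.99) and Ccr7 (1.95). All but Ccr7, which guides dendritic cells and naive lymphocytes to lymph nodes, are carried by monocytes or macrophages. Ccr4, Ccr6 and Ccr8, typical of helper and regulatory T cell subsets, had the lowest medians of the 18. Other receptors carried by T cells were not as low, as Cxcr6 and then Cxcr3 came directly below Ccr7.

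**Figure D1:**
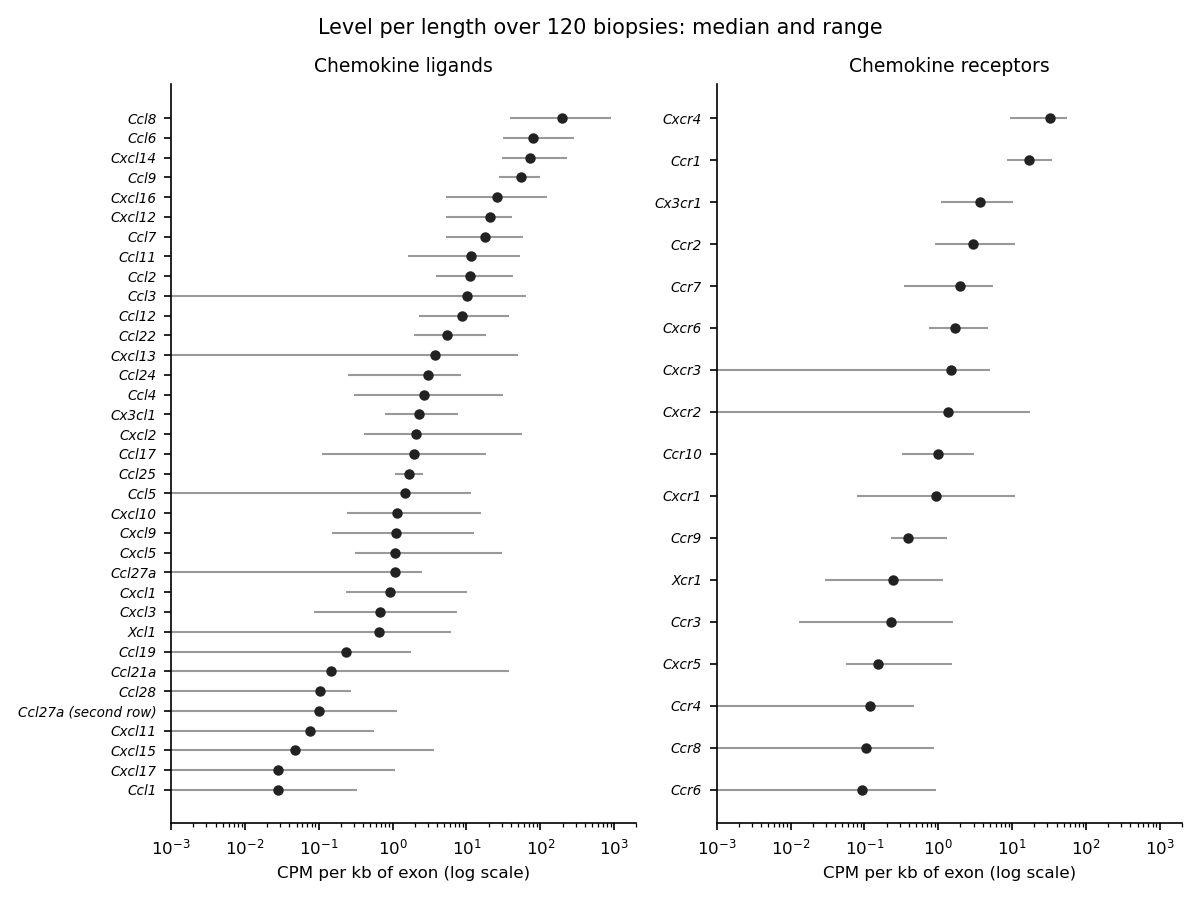
Levels of ligands (left) and receptors (right) with a median above 0, in CPM per kilobase of exon on a log axis; points are medians over 120 biopsies and lines run from the lowest to the highest biopsy, reaching the left edge where a biopsy had no count. Ccl8 led the ligands at 193.9 CPM per kb and Cxcr4 the receptors at 33.1.

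The first comparison asked whether niches of the diabetes-prone strain differ from those of the resistant strain. The counts of each mouse's batch 1 biopsies were summed, giving 1 library for each of 5 NOR mice, 4 nonprogressors and 5 progressors. Of 53 chemokine genes tested, 7 (13.2%) passed an adjusted p of 0.05, against 8.98% of all genes. Of the 7, 5 were lower and 2 higher in NOD, against 5.11% and 3.87% of all genes. The median log2 change of the chemokine genes was -0.07, against 0.00 over all genes.

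Cxcr1, which with Cxcr2 forms the receptor pair for neutrophil-attracting CXC chemokines, differed the most. Its summed level was 6.94, 8.01, 7.75, 7.59 and 7.74 CPM in the 5 NOR mice, 1.25, 1.21, 2.20 and 0.784 CPM in the nonprogressors, and 2.67, 1.29, 0.855, 1.02 and 0.961 CPM in the progressors. In these sums over ages the strains did not overlap, and every NOR mouse was above every NOD mouse. Single NOR biopsies at the oldest ages reached below the highest NOD sum, as the values by age below show. Cxcr1 was 5.60-fold lower in NOD (log2 change -2.48 ± 0.25, adjusted p = 5.97e-06), and it passed the threshold in all 14 fits that left out 1 mouse.

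Cxcr2, the receptor for Cxcl1, Cxcl2, Cxcl3 and Cxcl5, lies 30.54 kb from Cxcr1 on chromosome 1. Its level was 1.78, 2.57, 1.89 and 2.27 CPM in NOR mice 1, 2, 3 and 5 and 10.5 CPM in NOR mouse 4, and 3.85 to 5.74 CPM in the 9 NOD mice. NOR mouse 4 was above every NOD mouse and the other 4 NOR mice were below them all. With all mice Cxcr2 had a log2 change of 0.31 ± 0.36 (adjusted p = 0.664). Without the 18-week biopsy of mouse 4, a setting chosen after its values were seen, Cxcr2 was higher in NOD (1.16, adjusted p = 1.78e-06), opposite in direction to Cxcr1.

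Cx3cl1 (fractalkine), the ligand of Cx3cr1 on monocytes and macrophages, had 10.6, 10.9, 12.9, 15.1 and 15.6 CPM in the NOR mice and 6.16 to 8.24 CPM in the NOD mice. In these sums over ages the strains did not overlap, and Cx3cl1 was 1.80-fold lower in NOD (log2 change -0.85 ± 0.10, adjusted p = 2.86e-05). Single NOR biopsies at the oldest age reached into the range of the NOD sums, as the values by age below show. Cx3cr1 did not pass (0.15 ± 0.16, adjusted p = 0.617). Cxcl16 ran from 93.6 to 134.7 CPM in NOR, 58.5 to 71.5 in nonprogressors and 64.9 to 96.3 in progressors, overlapping at the top of the progressors, and was 1.46-fold lower in NOD (-0.55 ± 0.12, adjusted p = 0.0104).

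Smaller differences were Cxcl12 (log2 change -0.43 ± 0.10, adjusted p = 0.017), Cxcl5 (-1.14 ± 0.30, adjusted p = 0.0294), the eosinophil chemoattractant Ccl24 (0.74 ± 0.19, adjusted p = 0.021) and the monocyte chemoattractant Ccl7 (0.42 ± 0.12, adjusted p = 0.0399). Ccl24 passed in all 14 fits that left out 1 mouse (adjusted p up to 0.0474), and the other calls were less secure in such fits. With nonprogressors and NOR mice alone, Ccl24 did not pass, as given below. Cxcl12 had a change of 0.13 (adjusted p = 0.833) when 6-week biopsies alone were compared and did not pass without NOR mouse 1 or 3 (adjusted p up to 0.0614), Cxcl5 did not pass without NOR mouse 4 or without nonprogressor 1 (adjusted p up to 0.107), and Ccl7 did not pass in 8 of the 14 fits that left out a mouse (NOR mice 1, 3, 4 and 5, nonprogressors 1, 2 and 3 and progressor 5, adjusted p up to 0.103). NOR mouse 4 had 10.7 CPM of Cxcl5 against 2.93 to 3.86 CPM in the other NOR mice.

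**Figure D2:**
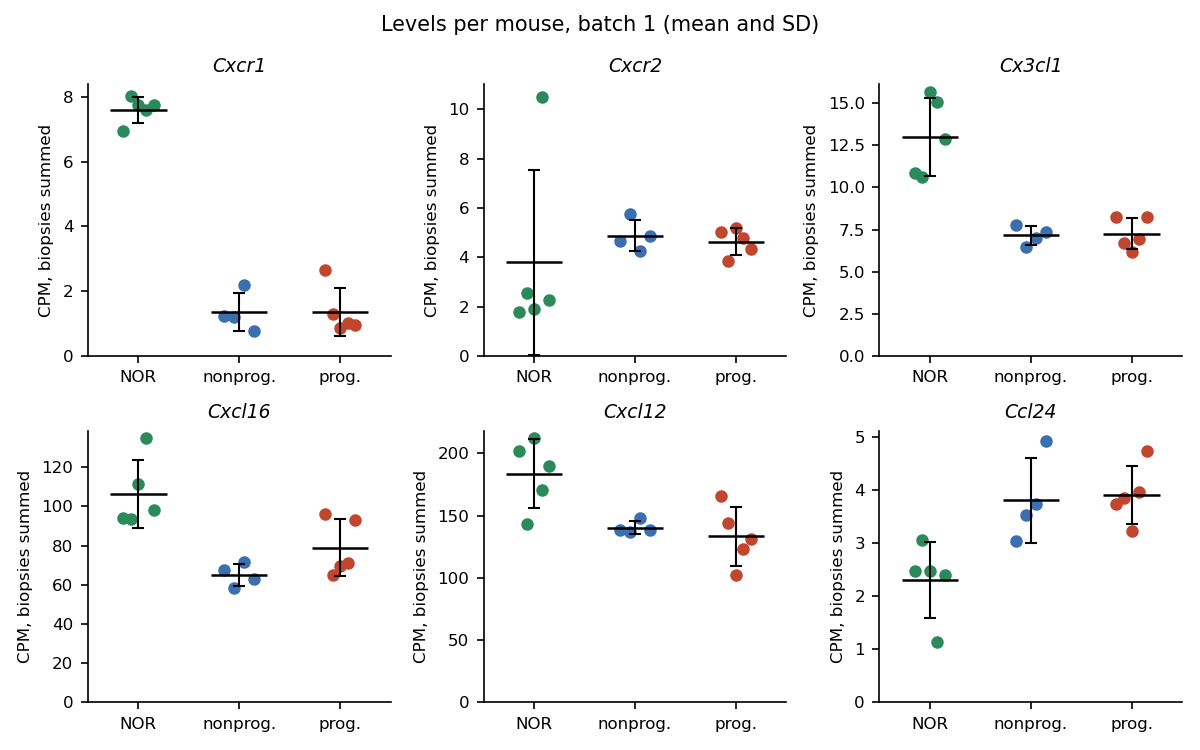
Level of 6 chemokine genes in CPM with the batch 1 biopsies of each mouse summed; each point is 1 mouse, long bars are means and whiskers SDs (5 NOR, 4 nonprogressors, 5 progressors). Cxcr1 and Cx3cl1 separated the strains without overlap, and 1 NOR mouse stood at 10.5 CPM for Cxcr2.

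With nonprogressors and NOR mice alone, sampled at the same ages, 4 of 52 chemokine genes passed (7.69%, against 6.26% of all genes, 3.63% lower and 2.63% higher). Cxcr1 (log2 change -2.49 ± 0.25), Cx3cl1 (-0.86 ± 0.13) and Cxcl16 (-0.70 ± 0.11) were again lower in nonprogressors, with adjusted p of 0.000221, 0.00306 and 0.00525. Ccl7 was higher (0.56 ± 0.14, adjusted p = 0.0404), though not without NOR mouse 1, 3, 4 or 5 or nonprogressor 3 or 4 (up to 0.0966). Ccl24 (0.72 ± 0.25, adjusted p = 0.129), Cxcl12 (-0.39 ± 0.10, 0.0576) and Cxcl5 (-0.97 ± 0.42, 0.212) did not pass here. These values share their NOR mice and nonprogressors with the comparison above and add no independent samples.

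Genes within 500 kb of the 7 called genes were read for the same contrast. Near Cxcl16 on chromosome 11, 22 of 50 tested neighbours passed (44%), 14 higher and 8 lower in NOD, and near Cxcr1 6 of 23 passed (26.1%). Near the other 5 called genes the count was 3 in all, with 0 near Cxcl12, Cxcl5 and Ccl7. What these neighbourhoods contribute to the differences in Cxcl16 and Cxcr1 was not tested. Macrophage markers were lower in NOD for 5 of 8 genes (mouse sums 2914 to 3294 CPM in NOR, 2375 to 2949 in NOD) and mast cell markers for 4 of 6 (27.7 to 76.9 CPM in NOR, 10.5 to 32.3 in NOD). Lower in NOD were also 1 of 7 neutrophil markers tested (Csf3r, -0.94, adjusted p = 0.00306), with sums of 30.8 to 75.0 CPM in NOR and 19.7 to 25.7 in NOD, 1 of 5 eosinophil markers (Siglecf, -0.50, 0.0107; sums 4.39 to 5.60 and 3.13 to 4.84 CPM) and 1 of 8 T cell markers (Cd4, -1.13, 0.0185; sums 16.6 to 26.4 and 9.25 to 20.9 CPM). The part of these cell types in the chemokine differences was not tested. In these bulk samples fewer cells of a type and less RNA per cell cannot be told apart.

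The next question was how the resistant strain's niches vary with age. Across the 5 ages of NOR mice, 19 of 47 chemokine genes tested (40.4%) passed an F test over all ages, against 8.24% of all genes. They comprised 15 ligands and 4 receptors. Cxcr1, Cx3cl1 and Xcl1 had their highest median at 10 weeks and their lowest at 22 weeks. The others were highest at 18 or 22 weeks and, except for Ccr3 and Cxcr2, lowest at 6 or 10 weeks.

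Cxcr1 was 5.29 to 7.74 CPM at 6 weeks, 8.33 to 16.1 CPM at 10 weeks, 6.39 to 14.3 CPM at 14 weeks, 2.02 to 4.77 CPM at 18 weeks and 2.13 to 4.96 CPM at 22 weeks. No biopsy at 18 or 22 weeks reached the lowest at any earlier age (adjusted p = 0.000174). Cx3cl1 was 8.98, 9.17, 12.1 and 13.4 CPM at 6 weeks, between 16.8 and 30.4 CPM at 10 weeks, and between 4.83 and 8.72 CPM at 22 weeks, with no overlap between these 3 ages (adjusted p = 0.00104). Xcl1, made by NK cells and CD8 T cells and read by Xcr1 on cross-presenting dendritic cells, had a median of 0.706 CPM at 10 weeks, 0.0919 CPM at 6 weeks and 0.0416 CPM at 22 weeks (adjusted p = 0.00261). The NK cell markers summed to 8.58 to 13.9 CPM at 10 weeks and 2.13 to 2.97 CPM at 22 weeks, and 3 of 5 passed the same test; their part in the Xcl1 values was not tested.

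The monocyte and eosinophil chemoattractants were high at the oldest age. Ccl7 was 8.02, 11.1, 7.17 and 7.85 CPM at 6 weeks and 20.7, 27.4, 20.1, 14.2 and 22.5 CPM at 22 weeks, without overlap (adjusted p = 0.000187). Ccl11 (eotaxin) was 1.75 to 9.95 CPM at 6 weeks and 57.9, 58, 37.2, 14.2 and 55.9 CPM at 22 weeks, again without overlap (adjusted p = 0.00528), and Ccl24 ran from 0.361 to 1.94 CPM and from 3.42 to 9.47 CPM at the same ages (adjusted p = 0.00778). Ccr3, the eotaxin receptor on eosinophils, also passed (adjusted p = 0.0134), with 0.547 to 4.65 CPM at 22 weeks and 5.05 CPM in 1 biopsy at 18 weeks. Eosinophil markers summed to 3.66 to 5.83 CPM at 6 weeks and 6.97 to 12.7 CPM at 22 weeks and all 3 that could be tested passed. Their part in these results was not tested.

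Among other ligands, Ccl8 was 20.1 to 69.2 CPM at 6 weeks and 83.2 to 177 CPM at 22 weeks (adjusted p = 0.00949). The Ccr4 ligands Ccl17 and Ccl22 had medians of 0.473 and 11.0 CPM at 6 weeks and 2.46 and 21.8 CPM at 22 weeks (adjusted p = 0.0044 and 0.00497). Ccl2, the main ligand of Ccr2, passed (median 8.49 CPM at 6 weeks and 20.7 CPM at 22 weeks, adjusted p = 0.0054), whereas Ccr2 itself did not. Ccl3, Ccl9, Ccl12 and Cxcl16 did not pass either (adjusted p = 0.209, 0.127, 0.123 and 0.572).

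Of the neutrophil-attracting ligands Cxcl1, Cxcl2, Cxcl3 and Cxcl5 passed, in part through 1 animal. Cxcl3 was 0.464 to 2.74 CPM at 6 weeks and 5.01 to 11.1 CPM at 22 weeks (adjusted p = 0.00184), and Cxcl5 was 1.5 to 2.91 CPM and 2.94 to 10.2 CPM (adjusted p = 0.00196). At 18 weeks Cxcl5 was 56.8 CPM in mouse 4 against 1.98 to 5.38 CPM in the other 3 biopsies, Cxcl2 was 116 against 5.27 to 13.1 CPM, and Cxcr2 was 53.0 against 0 to 2.5 CPM. Without mouse 4, Cxcl3 and Cxcl5 still passed, but Cxcl1 (adjusted p = 0.00811 with all mice), Cxcl2 (0.00171 and 0.128 without it), Ccl4 (0.0055 and 0.66) and Cxcr2 (0.00615 and 0.116) did not. With the mouse as a replicate block, Ccl4, Cxcr2 and Ccl6 did not pass (adjusted p = 0.0982, 0.149 and 0.0505) and Ccr1 did (0.024).

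Ccl7, Ccl17, Cx3cl1, Cxcl3, Cxcl5, Xcl1 and Cxcr1 passed whichever mouse was left out. Besides the genes lost without mouse 4, Ccl11 (adjusted p up to 0.0651) and Ccl8 (0.0847) were lost without mouse 2 or 5, Ccl22 (0.0665) and Ccl24 (0.129) without mouse 1 or 2, Ccl2 (0.106) without mouse 1, Ccl6 (0.153) without mouse 1, 2 or 5, Ccr3 (0.138) without mouse 1, 2 or 3 and Cxcl1 (0.11) also without mouse 5. When the later ages were averaged and set against 6 weeks, 0 of 47 passed (6 at an unadjusted p below 0.05, and 0.0357% of all genes called), and the median log2 change of the chemokine genes was 0.29 against 0.00 over all genes.

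**Figure D3:**
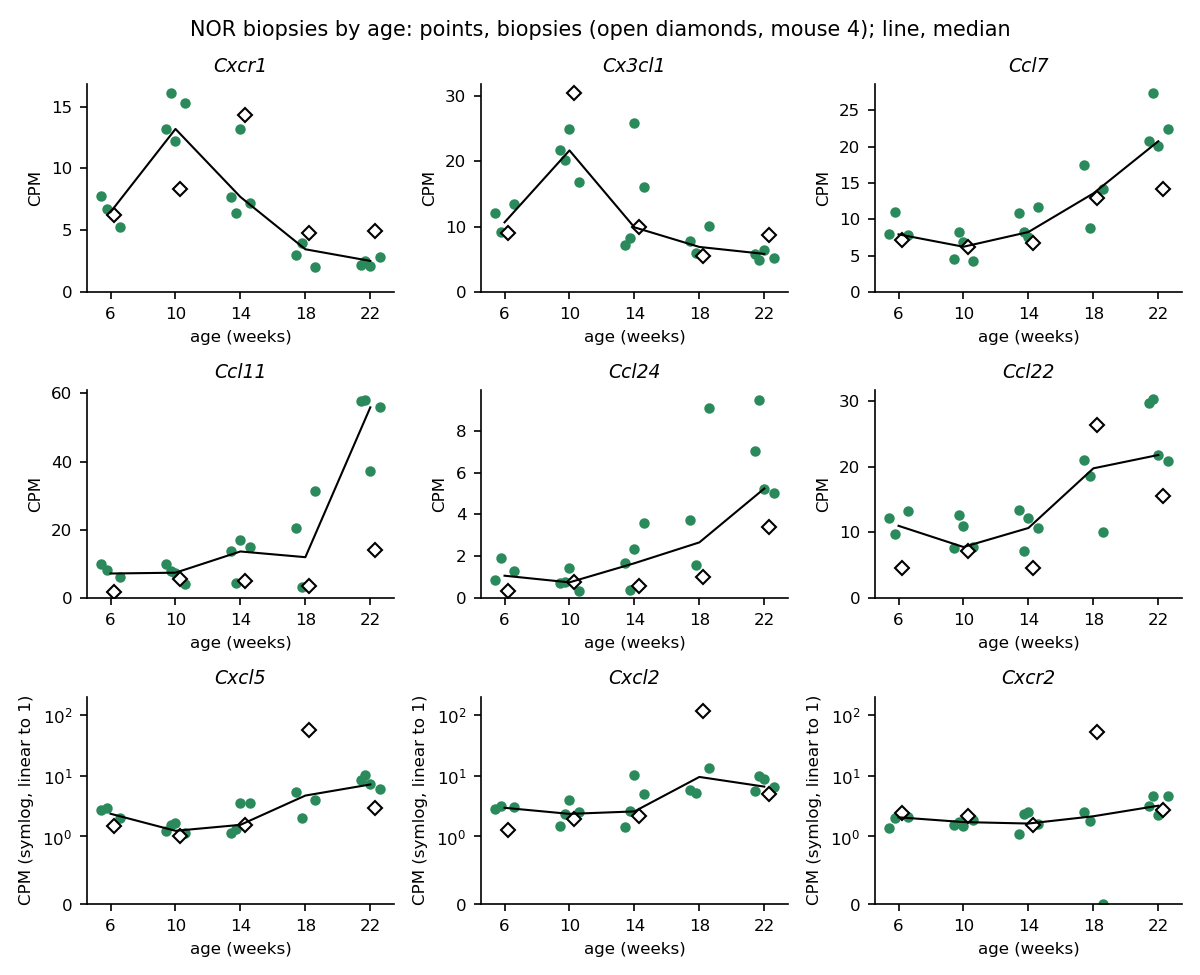
Levels of 9 chemokine genes in CPM in each NOR biopsy against age in weeks (bottom row on an axis that is linear near 0 and logarithmic above); lines join medians and open diamonds are mouse 4. Cxcr1 and Cx3cl1 peaked at 10 weeks, Ccl7 and Ccl11 were highest at 22 weeks, and mouse 4 at 18 weeks reached 53.0 CPM for Cxcr2.

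In NOD mice the question was how chemokine expression changes from before disease to its onset. In progressors, biopsies from 5 weeks before onset to onset (20 in each batch) were compared with those at 6 weeks of age (5 in each batch). Of 50 chemokine genes tested, 19 passed (38%), 14 higher and 5 lower, against 39.5% of all genes (19.6% higher and 19.9% lower), so the share in all was close to the background. The median log2 change was 0.14 for ligands and 0.26 for receptors, against 0.01 over all genes. In nonprogressors, biopsies at 10 to 22 weeks compared with 6 weeks gave 9 of 49 (18.4%), 5 higher and 4 lower, against 24.1% of all genes (9.88% higher and 14.2% lower). Fibroblast markers fell in both groups for 7 of 7 genes (in progressors from sums of 39132 to 83463 CPM to 5910 to 43338 CPM), while 0 of 8 macrophage markers passed in progressors; their part in the chemokine results was not tested.

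Of the interferon-induced ligands of Cxcr3, which attract activated T cells, Cxcl9 and Cxcl10 fell in both groups. Cxcl11 was called in neither (-0.24 ± 0.60, adjusted p = 0.812 in nonprogressors). In progressors Cxcl10 was 5.57, 2.63, 3.91, 7.10 and 6.15 CPM at 6 weeks in batch 1 and 3.23, 1.43, 7.22, 7.97 and 35.9 CPM in batch 2, and later 0.538 to 3.72 CPM (median 2.16) and 0.708 to 25.5 CPM (median 2.07). The medians separated in both batches although single biopsies overlapped. Cxcl10 was 3.17-fold lower (log2 change -1.66 ± 0.33, adjusted p = 5.99e-05), passed within each batch (adjusted p = 0.00941 and 0.00293) and passed whichever mouse was left out.

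In nonprogressors Cxcl10 was 9.67, 3.66, 9.19 and 6.77 CPM at 6 weeks in batch 1 and 2.10 to 16.1 CPM in batch 2, and later 0.743 to 9.07 CPM (median 1.83) and 2.33 to 3.79 CPM (median 2.88). The log2 change was -1.45 ± 0.32 (adjusted p = 0.00152), and Cxcl10 passed within each batch (adjusted p = 0.0148 and 0.0199). Cxcl9 fell by 1.5 ± 0.37 in nonprogressors (adjusted p = 0.00399) and by 1.19 ± 0.46 in progressors (adjusted p = 0.0335), the latter passing in neither batch alone (0.0501 and 0.312). In nonprogressors the Cxcl9 call was lost without mouse 1 (adjusted p = 0.0888), and in progressors without mouse 3, 4, 5 or 9 (up to 0.134). Cxcr3, the receptor of both, had log2 changes of 0.11 ± 0.16 in progressors and 0.01 ± 0.19 in nonprogressors, and neither passed (adjusted p = 0.617 and 0.978).

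The promoters of 2 interferon-induced ligands and of 3 neutrophil-attracting ligands are shown. Cxcl9 and Cxcl10 were taken because they fell in both NOD groups and lie 18.56 kb apart on chromosome 5. Cxcl1, Cxcl2 and Cxcl3, on the same chromosome, were taken because they passed across NOR ages (Cxcl1 and Cxcl2 not without mouse 4). Each promoter is 300 bases from RefSeq (GRCm38.p6), from 250 bases before to 50 after the annotated start, written 5′ to 3′ on the gene's strand. Capitals mark matches, on either strand, to TTCNNNGAA (GAS, the gamma interferon activated site), GAAA followed after any 2 bases by GAAA again (ISRE core, bound by interferon-regulated factors) and the NF-kB consensus. They occupy chr5:92328030-92328329 (minus strand) for Cxcl9, chr5:92348840-92349139 (minus) for Cxcl10, chr5:90890995-90891294 (plus) for Cxcl1, chr5:90903649-90903948 (plus) for Cxcl2 and chr5:90785851-90786150 (plus) for Cxcl3.
Cxcl9: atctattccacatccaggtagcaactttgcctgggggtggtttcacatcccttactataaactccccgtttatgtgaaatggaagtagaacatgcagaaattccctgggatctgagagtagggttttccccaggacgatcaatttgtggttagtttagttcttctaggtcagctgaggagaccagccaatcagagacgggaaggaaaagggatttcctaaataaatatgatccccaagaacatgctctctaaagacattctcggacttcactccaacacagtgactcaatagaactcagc
Cxcl10: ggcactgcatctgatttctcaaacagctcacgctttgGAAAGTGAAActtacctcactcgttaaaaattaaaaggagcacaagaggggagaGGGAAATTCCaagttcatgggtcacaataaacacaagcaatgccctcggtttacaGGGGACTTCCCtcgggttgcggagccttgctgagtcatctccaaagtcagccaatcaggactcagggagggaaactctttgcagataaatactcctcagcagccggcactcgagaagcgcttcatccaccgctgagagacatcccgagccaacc
Cxcl1: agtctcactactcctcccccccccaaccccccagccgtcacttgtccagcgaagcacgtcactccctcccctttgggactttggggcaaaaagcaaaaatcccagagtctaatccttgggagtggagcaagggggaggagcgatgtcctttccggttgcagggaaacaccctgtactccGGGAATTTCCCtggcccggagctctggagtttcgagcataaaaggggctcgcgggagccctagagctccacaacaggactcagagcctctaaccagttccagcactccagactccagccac
Cxcl2: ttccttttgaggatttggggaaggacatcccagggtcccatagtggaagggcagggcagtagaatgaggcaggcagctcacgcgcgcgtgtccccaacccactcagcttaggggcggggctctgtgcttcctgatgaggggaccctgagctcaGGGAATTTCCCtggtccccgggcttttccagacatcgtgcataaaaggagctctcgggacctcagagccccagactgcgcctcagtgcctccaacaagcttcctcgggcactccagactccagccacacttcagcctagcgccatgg
Cxcl3: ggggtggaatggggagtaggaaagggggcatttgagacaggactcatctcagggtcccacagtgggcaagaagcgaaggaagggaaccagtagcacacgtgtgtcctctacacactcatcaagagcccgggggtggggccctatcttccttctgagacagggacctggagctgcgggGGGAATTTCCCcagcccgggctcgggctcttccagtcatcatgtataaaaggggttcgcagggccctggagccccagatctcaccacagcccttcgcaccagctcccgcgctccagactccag

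Cxcl10 held an ISRE core 213 bases before its start, an NF-kB match at 159 and a pair of overlapping NF-kB matches at 104 and 103. Cxcl1, Cxcl2 and Cxcl3 each held a pair of overlapping NF-kB matches, at 71 and 70, 97 and 96, and 73 and 72 bases before the start. The Cxcl9 window held none of the 3 motifs. Over 32817 mouse promoters of the same length, 8.29% held a GAS, 3.43% an ISRE core and 8.46% an NF-kB match, and of the 42 chemokine symbols with an entry 3, 3 and 11 held them. The former shares are per promoter, whereas a symbol with several promoters was counted if any of them held the motif. A match describes letters in the window and not binding.

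Cxcl16 rose in both groups. In progressors it was 60.4, 39.2, 55.2, 67.7 and 50.1 CPM at 6 weeks in batch 1 and 37.4, 47.9, 37.8, 62.1 and 43.4 CPM in batch 2, against later ranges of 56 to 187 CPM (median 82.2) and 63.6 to 136 CPM (median 86.4). In batch 2 no later biopsy fell within the 6-week range. The change was 1.79-fold (log2 0.84 ± 0.12, adjusted p = 2.35e-07) and passed within each batch (0.0141 and 4.92e-07). In nonprogressors it was 0.57 ± 0.10 (adjusted p = 0.000208) and also passed within each batch (0.0311 and 0.000128), with ranges of 40.0 to 63.0 CPM at 6 weeks and 54.9 to 97.5 CPM later.

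Cxcr6, the Cxcl16 receptor on memory and tissue-resident T cells, rose in progressors. It was 1.96, 1.87, 2.23, 1.45 and 2.85 CPM at 6 weeks in batch 1 and 2.48, 2.30, 2.83, 2.99 and 3.47 CPM in batch 2, and later 2.17 to 4.69 CPM (median 3.15) and 3.59 to 8.86 CPM (median 5.48). In batch 2 the later biopsies lay above all 6-week biopsies. The log2 change was 0.80 ± 0.14 (adjusted p = 5.48e-06), with adjusted p of 0.00517 and 0.000772 within the batches. In nonprogressors Cxcr6 did not pass (0.21 ± 0.14, adjusted p = 0.291).

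Receptors typical of helper and regulatory T cell subsets also rose in progressors. Ccr4, the receptor of Ccl17 and Ccl22, was 0.0657 to 0.163 CPM at 6 weeks in batch 1 and 0.0935 to 0.327 CPM in batch 2, and later 0.0801 to 0.843 CPM (median 0.421) and 0.293 to 1.27 CPM (median 0.654). Ccr4 did not pass the filter on low counts in fits of 6-week libraries alone and entered this fit through the later group. Its log2 change of 1.96 ± 0.29 (adjusted p = 3.05e-07, and 0.00258 and 0.000426 within the batches) is thus a description of that gap. Its counts were low, 2 to 13 in a library at 6 weeks and 2 to 51 later.

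Ccr8, a receptor of regulatory and skin-homing T cells, had 3 counts over the 10 libraries at 6 weeks, 8 of them at 0, and 257 counts over the 40 later libraries, 4 of them at 0. Per total count the ratio was 20.9 (95% interval 7.08 to 102, counting error only), with 14.7 in batch 1 (68 counts against 1) and 25.4 in batch 2 (189 against 2). Ccr8 passed the filter on low counts through the later group, so its fitted change of 3.93 ± 0.59 (adjusted p = 5e-07) is a description of that gap. In nonprogressors Ccr8 had 23 counts over 11 libraries at 6 weeks, 3 of them at 0. In batch 2 of that group it had 14 counts over 7 libraries at 6 weeks and 48 over 6 at 14 weeks. In batch 1 it had 9 counts at 6 weeks and 16, 30, 21 and 10 at 10, 14, 18 and 22 weeks, over 4 libraries each. Ccr6, the receptor of Ccl20 on Th17-type and B cells, rose by 1.12 ± 0.30 (adjusted p = 0.00252, and 0.173 and 0.00629 within the batches), and the B cell receptor Cxcr5 by 0.59 ± 0.24 (adjusted p = 0.0423). Ccr6 also did not pass the filter in fits of 6-week libraries alone, so its fitted change is a description too. The Cxcr5 call was lost in 8 of the 10 fits that left out a mouse (up to 0.109), all but those without mouse 1 or 6. Cxcr5 passed in neither batch alone (0.355 and 0.0949).

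T cell markers rose for 4 of 8 genes (Cd2, Cd3d, Cd3e and Cd3g), with sums of 10.3 to 24.4 CPM at 6 weeks in batch 1, 4.95 to 11.5 CPM in batch 2 and 5.54 to 76.1 CPM later. B cell markers rose for 4 of 5 genes and hair follicle markers for 4 of 6, with a sum of 5621 CPM in the highest biopsy. What these contributed to the receptor values was not tested.

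Cxcr2 rose in progressors (0.78 ± 0.17, adjusted p = 0.000175) and in nonprogressors (0.68 ± 0.21, adjusted p = 0.0165), in the latter not with the mouse as a replicate block (0.0522) or without mouse 4 (0.103). Its ligand Cxcl2 rose in progressors (0.75 ± 0.23, adjusted p = 0.00904), and Cxcl5 (1.30 ± 0.38, adjusted p = 0.0119) and Cxcl3 (1.28 ± 0.46, adjusted p = 0.0404) rose in nonprogressors, Cxcl3 not with the block (0.124) nor without mouse 2, 3, 4, 6 or 9 (up to 0.286), and Cxcl5 not without mouse 4 (0.0574). Cxcl2 in progressors passed in neither batch alone (0.0835 and 0.0903). In nonprogressors Cxcr2 (0.0675 and 0.103), Cxcl5 (0.0745 and 0.145) and Cxcl3 (0.104 and 0.761) also passed in neither. Neutrophil markers passed in 0 of the 5 genes tested in progressors.

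The monocyte receptor Ccr2 fell in both groups, by 0.48 ± 0.18 in progressors (adjusted p = 0.0319) and by 0.65 ± 0.20 in nonprogressors (adjusted p = 0.0182), in the former not without mouse 1, 6, 9 or 10 (up to 0.0855) and in the latter not without mouse 1 (0.0619). Cx3cr1 fell by 0.60 ± 0.19 in nonprogressors (adjusted p = 0.0244), from 15 to 26 CPM at 6 weeks to 4.87 to 8.60 CPM at 22 weeks in batch 1, but its change in batch 2, which holds 6 and 14 weeks only, was 0.16 (adjusted p = 0.592), and the call was lost without mouse 1, 2 or 3 (up to 0.0942). The macrophage ligands Ccl6 and Ccl9 fell in progressors by 0.57 ± 0.19 and 0.32 ± 0.12 (adjusted p = 0.0149 and 0.026). Ccl6 passed within batch 2 (0.000419) and not batch 1 (0.852) and was lost without mouse 9 (0.174). Ccl9 was lost without mouse 1, 3 or 9 (up to 0.106) and passed in neither batch alone (0.232 and 0.0606). Ccr2 passed within batch 2 and not batch 1 in progressors (0.0261 and 0.405) and in nonprogressors (0.0107 and 0.194).

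The remaining genes that rose in progressors were Cxcl14 (0.60 ± 0.16, adjusted p = 0.00239), which passed in batch 2 and not batch 1 (0.000321 and 0.417), Ccl17 (1.02 ± 0.37, adjusted p = 0.0224), Ccl8 (0.67 ± 0.26, adjusted p = 0.0389), Ccl25 (0.21 ± 0.07, adjusted p = 0.00967) and Ccr10 (0.48 ± 0.16, adjusted p = 0.0154). With the mouse as a replicate block Ccl17 and Ccl8 did not pass (0.0532 and 0.0686). Ccl17 was also lost without mouse 5, 6 or 7 (up to 0.0751), Ccl8 without any 1 of mice 2 to 8 (up to 0.11), Ccl25 without mouse 4 (0.0793) and Ccr10 without mouse 10 (0.0503). In progressors Ccl8 (0.0659 and 0.35), Ccl25 (0.115 and 0.0762) and Ccr10 (0.188 and 0.0687) passed in neither batch alone. Ccl17 passed in batch 2 and not batch 1 (0.0398 and 0.334). Ccr10, the receptor of the skin ligand Ccl27a, rose in nonprogressors too (0.64 ± 0.19, adjusted p = 0.0127), though not without mouse 2 (0.117) or within batch 1 (0.0539).

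**Figure D4:**
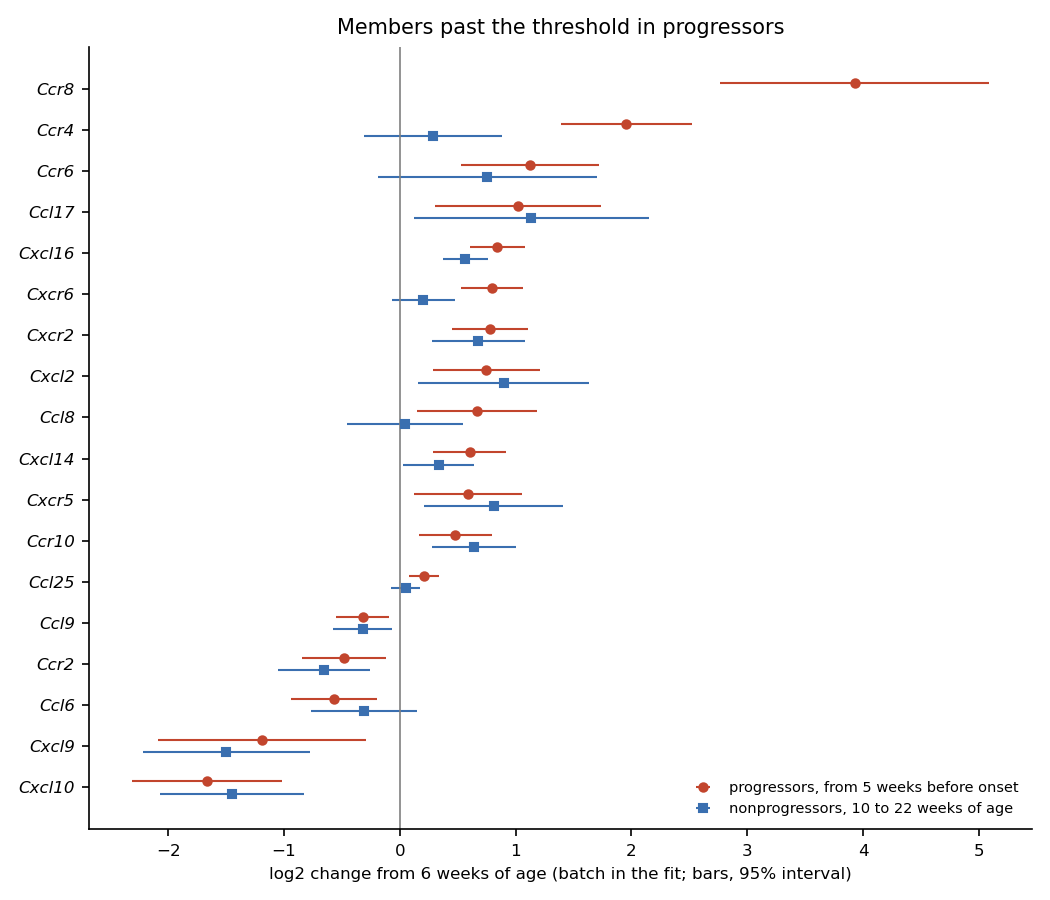
Log2 change from 6 weeks of age to the later biopsies for chemokine genes called in progressors, beside the same genes in nonprogressors; points are fitted changes and bars 95% intervals, and Ccr8 was not tested in nonprogressors. Cxcl10 lay at -1.66 and -1.45 and Cxcl16 at 0.84 and 0.57 in the 2 groups.

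The changes of the 2 NOD groups were then compared directly. The difference between progressors and nonprogressors in the later change passed for 0 of 53 chemokine genes and 0% of all genes, with 3 chemokine genes at an unadjusted p below 0.05. These were Ccr4 (1.13 ± 0.41, 95% interval 0.32 to 1.95, adjusted p = 0.593), Ccr8 (2.01, adjusted p = 0.634) and Cxcr6 (0.46 ± 0.19, interval 0.09 to 0.83, adjusted p = 0.651), each larger in progressors. The interval was -0.08 to 0.54 for Cxcl16 and -1.35 to 0.60 for Cxcl10. The genes called in one group alone are therefore not shown to differ between groups. At 6 weeks of age 0 of 44 differed between progressors and nonprogressors (0 at an unadjusted p below 0.05, and 0% of all genes), with an interval of -0.13 to 0.25 for Cxcl16. Cxcr6 had the smallest p of the 44 (-0.26, interval -0.55 to 0.02). Ccr4 and Ccr8 were too low to be tested there. Their unscaled 6-week counts were 52 and 3 over 10 progressor libraries, and 95 and 23 over 11 nonprogressor libraries. What these starting levels contribute to the larger changes in progressors was not tested. The change with age in nonprogressors against NOR passed for 0 of 50 (2 unadjusted, and 0% of all genes).

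**Figure D5:**
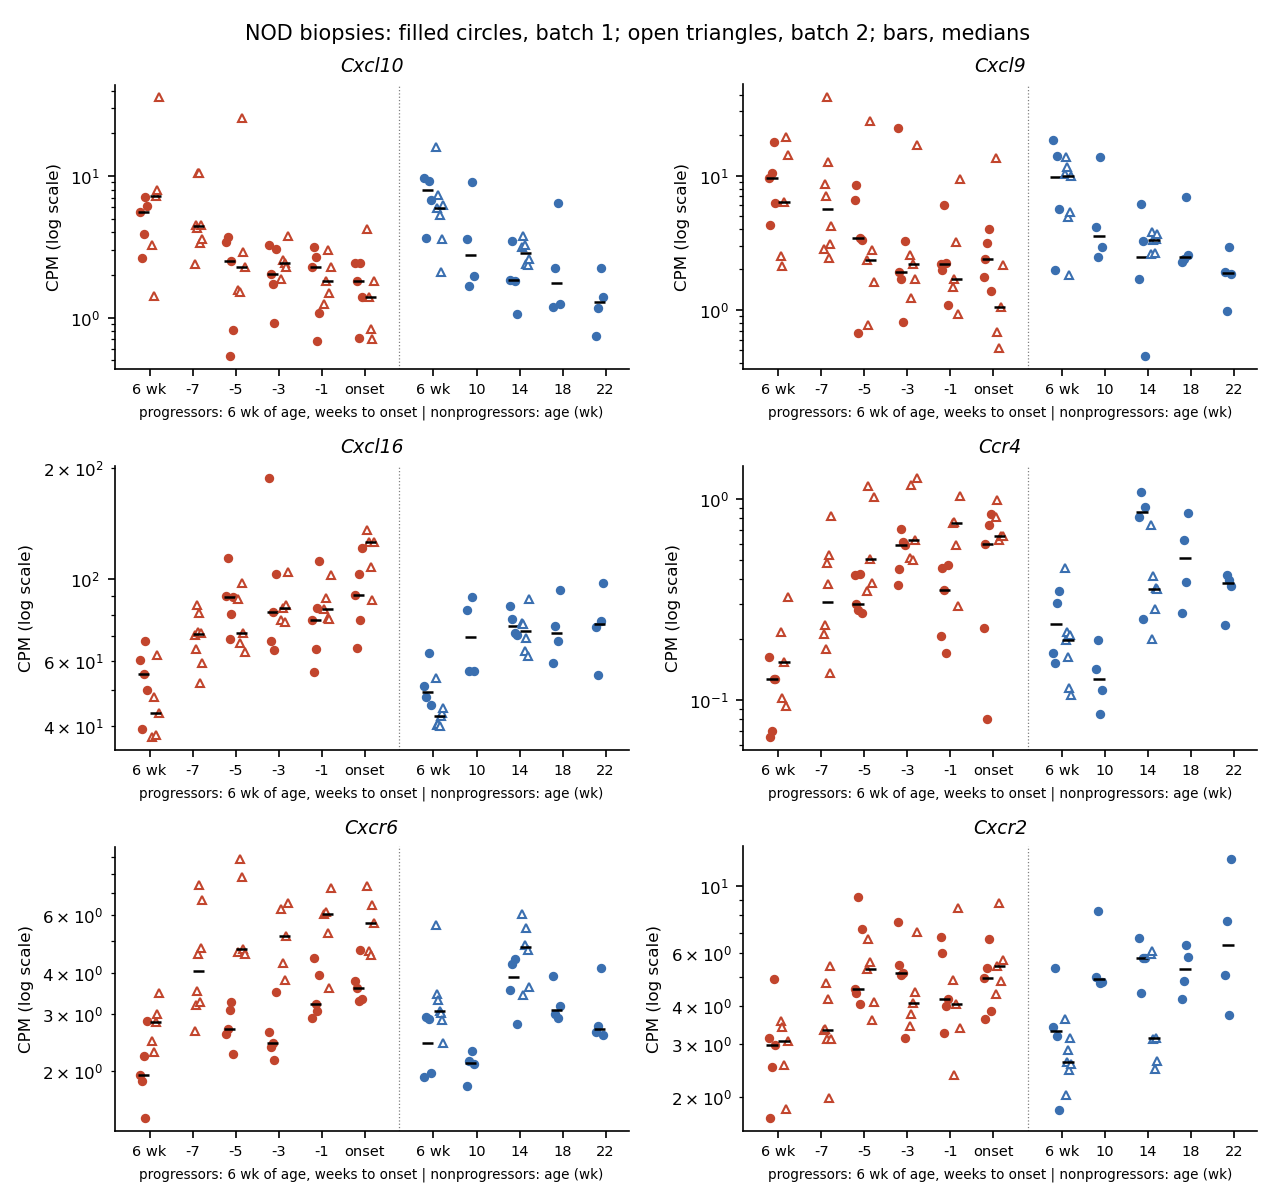
Levels of 6 chemokine genes in CPM in progressor and nonprogressor biopsies by time, filled circles for batch 1 and open triangles for batch 2, with bars at medians. Cxcl10 and Cxcl9 were high at 6 weeks in both groups, and Cxcl16 was lowest there.

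At 7 weeks before onset, 4 of 50 chemokine genes passed against 6 weeks of age (8%, against 12.5% of all genes, 5.91% higher and 6.64% lower), all higher. Cxcr1 was 0.722, 0.638, 1.08, 0.21 and 0.604 CPM at 6 weeks in batch 2 and 1.22 to 6.11 CPM (median 3.09) in the 8 biopsies at 7 weeks before onset, all in batch 2. The groups did not overlap, and the log2 change was 2.01 ± 0.56 (adjusted p = 0.0119, and 0.12 with the mouse as a replicate block). Over both NOD groups at 6 weeks, Cxcr1 was lower in batch 2 than in batch 1 (-1.13 ± 0.34, adjusted p = 0.00707). Cxcr1 was not called in the comparison from 5 weeks before onset on. By the labels, the batch 2 biopsies at 6 weeks were of mice 6 to 10. The 8 biopsies at 7 weeks before onset included mice 1 to 4, whose other biopsies were all in batch 1. Ccr8 had 43 counts in these 8 libraries, none at 0, against 2 counts in the 5 batch 2 libraries at 6 weeks, 4 of them at 0, and since it passed the filter on low counts through the later biopsies its fitted change (3.13 ± 0.69, adjusted p = 0.00187) describes that gap. The others were Cxcl16 (0.49 ± 0.16, adjusted p = 0.0369, and 0.262 with the block) and Ccr4 (1.01 ± 0.35, adjusted p = 0.0491, and 0.0545 with the block). Ccr4 too entered the fit through the later biopsies, so its change describes a gap. Cxcl16 was lost without any 1 of mice 3 and 5 to 10 (up to 0.144) and Ccr4 without any 1 but mouse 1 or 3 (up to 0.133). With the block Cxcr6 also passed (0.76, adjusted p = 0.0354). T cell markers summed to 6.93 to 40.1 CPM, against 4.95 to 11.5 CPM at 6 weeks in batch 2.

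From 5 weeks before onset to onset, 3 of 50 chemokine genes passed (6%, against 1.77% of all genes, 0.945% lower and 0.827% higher), all lower at onset. Ccl3, a ligand of Ccr1, was 7.92 to 19.1 CPM in batch 1 and 4.51 to 15 CPM in batch 2 at 5 weeks before onset, and 4.17 to 6.75 CPM and 1.61 to 8.86 CPM at onset. The batch 1 groups did not overlap and those of batch 2 did, and Ccl3 fell by 1.07 ± 0.26 (adjusted p = 0.0269). Cxcl14 fell by 0.77 ± 0.20 (adjusted p = 0.03), from 131 to 288 CPM and 119 to 309 CPM to 62.5 to 144 CPM and 89.3 to 188 CPM. Cxcl12 fell by 0.82 ± 0.22 (adjusted p = 0.0423, and 0.0578 with the mouse as a replicate block), from 147 to 294 CPM to 61.7 to 118 CPM in batch 2, without overlap, and from 47.5 to 230 CPM to 43.3 to 171 CPM in batch 1. Ccl3 was lost without mouse 2, 3, 5, 8 or 9 (up to 0.122), Cxcl14 without mouse 1, 3, 4, 6, 8 or 9 (up to 0.126) and Cxcl12 without any mouse but 3, 4 or 10 (up to 0.169), so the count ran from 0 to 6, and within batch 1 none passed (12 within batch 2). Ccl3 did not pass within batch 2 either (0.264).

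Genes that act beside the chemokines were read as lists. Of 5 atypical receptors, which bind chemokines without G protein signalling, Ackr3 (-1.48), Ackr2 (-1.41) and Ackr1 (-0.80) fell and Ackr4 (0.34) rose in later progressor biopsies. Of 20 signalling genes 9 rose (19.6% of all genes did), among them Pik3cg (0.41) and Vav1 (0.33), and 1 fell, Dpp4 (-1.62), the protease that trims and inactivates Cxcl10 and Cxcl12. In nonprogressors Ackr2 (-0.97) and Dpp4 (-1.20) fell. Between strains, Arrb2, the arrestin that internalises chemokine receptors, was higher in NOD (0.65, adjusted p = 3.13e-07), and it is one of the neighbours of Cxcl16 counted above. Of the same signalling list, Rgs2 (0.47, adjusted p = 0.000143) and Rgs1 (0.28, 0.0445) were also higher and Dock2 (-0.28, 0.0198) was lower. Of all genes 3.87% were higher and 5.11% lower. Across NOR ages 4 of 5 atypical receptors and 5 of 20 signalling genes passed, against 8.24% of all genes.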

How the data were processed

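Total RNA depleted of ribosomal RNA had been sequenced from biopsies of scaffold niches. The authors deposited 2 tables, 1 per batch, of RSEM expected counts per gene, already whole numbers and not normalized; the submitters' processing notes name cutadapt, FastQC, STAR, RSEM, MultiQC and GRCm38, with versions and strand settings not given in the sources used here. Reads of both strains were counted on that 1 build. Libraries held 4722396 to 56185434 counts, which limits genes with few counts most.

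Tests were two-sided edgeR (4.0.16) quasi-likelihood tests in R 4.3.3 after filterByExpr and TMM scaling, with Benjamini-Hochberg adjustment over all genes tested, a threshold of 0.05 SE taken from the log2 change and its F statistic, and 95% intervals by the normal approximation. Alternatives were DESeq2 (1.42.0), RLE scaling, no filter on low counts, within-batch fits, no batch term, a replicate block and leaving out each mouse. Strains were compared on counts summed per mouse. In the other fits biopsies of a mouse entered singly, so p-values treat them as independent. Pairing comes from the labels, which tie biopsies to a mouse. Deviations from group means of biopsies of the same mouse had median correlations of -0.007 in NOR, 0.03 in nonprogressors and -0.01 in progressors, against -0.005, -0.01 and 0.002 between mice.

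Lengths and neighbours came from GENCODE M21, and promoters from RefSeq. Named were members past the threshold, the 6 ligands and 6 receptors highest per length, receptor and ligand partners, and list genes past the threshold; the members given for the biopsies labelled by day were chosen after their values were seen. Some results within these rules are not reported here, though counts include them. The members and lists were chosen with earlier results of these data known. On simulated data for the strain comparison (23387 genes), folds of 1.5, 2 and 4 were recovered for 64.2%, 79.1% and 95.5% of changed genes. Of 164 calls, 5 were false. For the later change in progressors (21279 genes) the shares were 59.7%, 80.6% and 93.9%, and 13 of 169 calls were false. The simulated counts were independent and held no mouse or batch effect.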

Additional observations from a re-analysis of the deposited data

Results flagged for a closer look

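In 115 groups of 4 to 10 samples, over the chemokine genes with full values in the text, 13 held a sample set apart from the rest by Dixon's test at the 95% level, which chance does in about 1 in 20 groups. Mouse sums set apart were Cxcr1 in progressor 1 (2.67 CPM) and Cxcl5 and Cxcr2 in NOR mouse 4 (10.7 and 10.5 CPM). The 18-week biopsy of the same NOR mouse was set apart for Cxcl2 (116 CPM), Cxcl5 (56.8 CPM) and Cxcr2 (53.0 CPM), with a neutrophil marker sum of 344 CPM. This mouse was also the highest for Cxcr1 at 22 weeks (4.96 CPM) and the lowest for Cxcl2 at 6 weeks (1.29 CPM). NOR mouse 5 stood apart for Ccr3 at 18 weeks (5.05 CPM), in the library with 85.7% of counts on 1 ribosomal RNA gene.

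In NOD mice, Cxcl10 was set apart at 6 weeks in batch 2 in progressor 10 (35.9 CPM) and nonprogressor 5 (16.1 CPM), and nonprogressor 5 also for Cxcl16 (53.8 CPM). Cxcl14 was set apart in progressor 1 at 5 weeks before onset (288 CPM).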

How the results depend on the processing

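Some counts of chemokine genes called moved with the setting. With 6-week biopsies alone, NOD against NOR gave 3 in place of 7 and nonprogressors against NOR 2 in place of 4. Without a batch term the later change in nonprogressors gave 20 in place of 9. At 7 weeks before onset, 4 became 2 without the filter on low counts, 11 within batch 2, 8 without a batch term and 2 with the mouse as a replicate block. The later change in progressors gave 6 in place of 19 within batch 1. At onset against 5 weeks before, 3 became 1 without the filter, 5 by DESeq2, 0 within batch 1, 12 within batch 2 and 0 without a batch term. The batch comparison gave 12 in place of 21 in progressors alone. Leaving out 1 mouse gave 5 to 8 for NOD against NOR, 3 to 6 for nonprogressors against NOR, 13 to 20 across NOR ages, 6 to 10 for the later change in nonprogressors, 1 to 6 at 7 weeks before onset, 15 to 19 for the later change in progressors and 0 to 6 at onset. With each biopsy as a sample and no replicate block, NOD against NOR gave 5 and nonprogressors against NOR 3. The cause was not tested.

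Over 86 values of named genes refitted 1152 times, 946 kept their side of the threshold and 204 lost the call. Both kept their direction where the fit had one, and the F tests across NOR ages have none. The remaining 2 changed direction: Cxcl12 in NOD versus NOR with 6-week biopsies alone (0.13, adjusted p = 0.833), and Cx3cr1 in nonprogressors at 10 to 22 weeks versus 6 weeks within batch 2 (0.16, adjusted p = 0.592). Apart from the calls given in the report, the block lost none. Leaving out the 18-week biopsies of NOR mouse 4, or of mice 4 and 5, was added after seeing the data. Ccr4, Ccr6, Ccr8 and Xcl1 are among the genes with few counts, which limits their values.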

Other observations

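Biopsies of nonprogressors labelled by days after implantation (2 at each of days 31, 38 and 108) could not be tied to mice or ages and were left out of the comparisons. Cxcl16 was 96.2 to 170.2 CPM in these 6 biopsies, and 54.9 to 97.5 CPM in the batch 1 nonprogressors aged 10 to 22 weeks. Ccr8 had 10 to 38 counts and Ccr4 12 to 77 counts a library, with T cell marker sums of 38.4 to 64.5 CPM and NK cell marker sums of 14.9 to 21.9 CPM. Both biopsies at day 108 had a B cell marker sum of 42.3 and 43.8 CPM and Cxcr5, the receptor that B cells and follicular helper T cells use to enter follicles, at 3.71 and 3.77 CPM, against 0.339 to 0.967 CPM at days 31 and 38. Cxcl13, the ligand of Cxcr5, was 8.17 to 28 CPM over the 6.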
